A study of Mus musculus with 8 samples.

Results

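The fibrillar collagen chains described here are the 10 genes Col1a1, Col1a2, Col2a1, Col3a1, Col5a1, Col5a2, Col5a3, Col11a1, Col24a1 and Col27a1, out of 22180 mouse genes measured. They were listed by name, and each was read from the brightest of the probe sets that the array's annotation assigns to that gene alone. All 10 were found. RNA came from lung mesenchymal cells of C57BL/6J mice, 11 weeks old and kept free of specific pathogens. In the bleomycin group (4 arrays) the mice had received bleomycin through the trachea, and in the control group (4 arrays) phosphate-buffered saline. Bleomycin is a DNA-damaging drug used to injure the lung and provoke fibrosis. Cells negative for CD45, CD31 and EpCAM were sorted from whole lungs on day 10. That gate is meant to keep fibroblasts, smooth muscle and pericytes and to remove blood cells, endothelium and epithelium. From each sample 100 ng of RNA was labelled and read on a 1-colour array as log2 intensities, and precision is limited by how many arrays there are. Whether replicates were separate mice or pools is not labelled, so p-values measure only the spread between samples, possibly a technical one.

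Fibrillar collagens are the rope-like proteins that give connective tissue its tensile strength. Chains wind in threes into a long triple helix, are trimmed outside the cell and pack into staggered fibrils. Type I, made of Col1a1 and Col1a2 chains, is the bulk of lung interstitial fibrils, and type III, made of Col3a1 chains, is laid down with it in vessels, alveolar walls and early scars. Type V (Col5a1, Col5a2, Col5a3) sits inside type I fibrils, starts their assembly and limits their width. Types II and XI (Col2a1, Col11a1) play the same parts in cartilage, and types XXIV and XXVII (Col24a1, Col27a1) are later additions to the family with shorter helices.

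Of the 10 chains 8 rose in bleomycin samples and none fell (limma, Benjamini-Hochberg adjusted over all genes). Among all 22180 genes 9.12% were called higher and 8.24% lower. The type V chain Col5a2 rose most, 2.96-fold, followed by Col24a1 at 2.36-fold and Col5a1 at 2.19-fold. These 3 exceeded 2-fold, which 1.98% of all genes did, whereas the chains of types I and III rose between 1.65-fold and 1.85-fold. That order depends on the probe set for Col1a2 and Col5a1. With the mean of a gene's probe sets the log2 differences were 1.01 for Col1a2 and 0.67 for Col5a1. Col2a1 and Col27a1 did not pass the test. The median log2 difference was 0.86 over the 10 chains and 0.03 over all genes. In 8 chains every bleomycin array lay above every control array, which was so for 12.5% of all genes. Within replicates 1 and 2 alone 4 chains passed, as did 4 within replicates 3 and 4 alone, with 2 arrays per group. Of all 22180 genes, 838 and 503 were called higher in those fits. Without control replicates 1 and 2, the controls with the highest epithelial and endothelial marker levels, 7 chains passed. In that fit 1205 of all 22180 genes were called higher.

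Markers of the cell types that the sort removes moved with the groups. Of 18 epithelial markers 15 were lower in bleomycin samples and 1 was higher, with list means between 6.71 and 7.46 in bleomycin arrays and between 8.21 and 8.95 in control arrays. Of 14 endothelial markers 11 were lower, with list means between 6.97 and 7.48 in bleomycin arrays and between 7.81 and 8.85 in control arrays. No value in the table is 0, and on control arrays every epithelial and all but 1 endothelial marker had a mean above the median of the probe sets without a gene. Of 20 leukocyte markers 8 were higher and 1 lower. The 12 fibroblast markers went both ways, 5 higher and 4 lower, with Pdgfrb at 0.86 and Pdgfra at -0.43 in log2 difference, and their list means overlapped between the groups. Of 11 smooth muscle and pericyte markers 7 were higher and 1 lower, with Acta2 up by 1.92. The part of these cells in the collagen differences was not tested, and in bulk samples fewer cells of a type and less RNA per cell cannot be told apart.

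**Figure D1:**
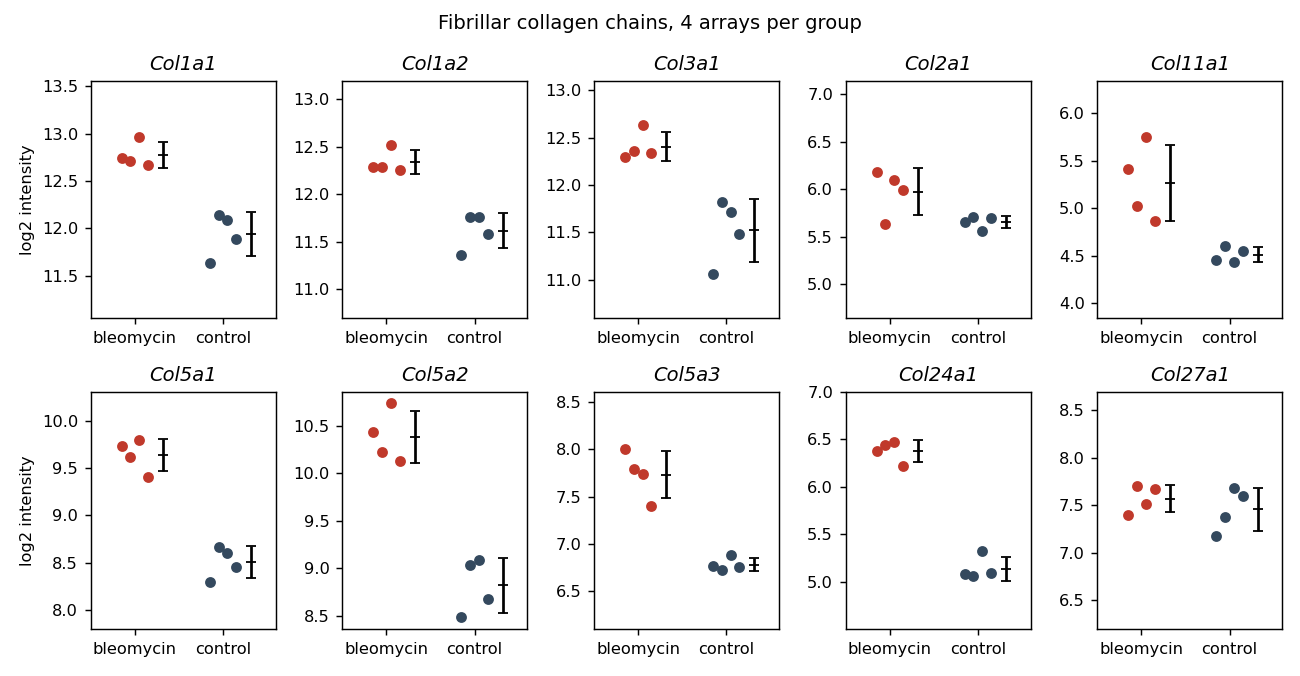
Log2 intensity of each chain on each array (points, bleomycin left and control right), with the group mean and SD (bars, n = 4 each); every panel spans the same number of log2 units. The groups are apart for 8 chains and overlap for Col2a1 and Col27a1.

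The chains of types I and III, the main fibril formers of the lung interstitium, all rose. Col1a1, which supplies most chains of type I collagen, read 12.74, 12.71, 12.97 and 12.67 on bleomycin arrays 1 to 4, against 11.64, 12.14, 12.09 and 11.89 on control arrays 1 to 4. The lowest bleomycin array stood 0.53 above the highest control array. The log2 difference was 0.83 ± 0.12 (SE), or 1.78-fold (limma adjusted p = 0.00137).

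Col1a2, the partner chain of type I collagen, read 12.29, 12.29, 12.52 and 12.26 on bleomycin arrays and 11.37, 11.76, 11.76 and 11.58 on control arrays. The groups were apart, with bleomycin replicate 3 the highest of all. Its difference was 0.72 ± 0.11, or 1.65-fold (limma adjusted p = 0.00175). A dimmer probe set of Col1a2 gave a difference of 1.31 ± 0.30 (limma adjusted p = 0.0271 over all rows), with 9.89, 9.69, 9.30 and 8.74 on bleomycin arrays and 7.79, 8.81, 8.09 and 7.69 on control arrays. There the groups overlapped, since control replicate 2 lay above bleomycin replicate 4, so the size of the Col1a2 rise depends on the probe set.

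Col3a1, the only chain of type III collagen, read 12.30, 12.36, 12.63 and 12.34 on bleomycin arrays and 11.06, 11.82, 11.71 and 11.48 on control arrays. It was the most uneven of the 3 among the controls, with an SD of 0.15 in bleomycin samples and 0.34 in control samples. Its difference was 0.88 ± 0.16, or 1.85-fold (limma adjusted p = 0.00378). Within replicates 1 and 2 alone the difference of 0.88 did not pass (limma adjusted p = 0.0993), and those of Col1a1 and Col1a2 passed in neither pair of replicates.

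The type V chains, the fibril nucleators, rose by 0.95 to 1.56. Col5a2, the chain that pairs with Col5a1 in the common form of type V, read 10.44, 10.23, 10.74 and 10.13 on bleomycin arrays and 8.48, 9.03, 9.09 and 8.67 on control arrays. All bleomycin arrays were above 10 and all control arrays below 9.1. The difference was 1.56 ± 0.17 (limma adjusted p = 0.000226), which put Col5a2 at place 169 among the rises of all 22180 genes. It passed in all 22 alternative fits that kept the threshold, at differences between 1.45 and 1.65.

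Col5a1, which is present in every type V molecule and carries the projecting end that limits fibril width, read 9.73, 9.62, 9.80 and 9.41 on bleomycin arrays and 8.30, 8.67, 8.60 and 8.46 on control arrays. The groups were apart by more than 0.7, and the difference was 1.13 ± 0.12 (limma adjusted p = 0.000181). A dimmer probe set of Col5a1, near 5.8 in bleomycin and 5.6 in control samples, differed by 0.21 ± 0.12 and did not pass (limma adjusted p = 0.329 over all rows). With the mean of both probe sets Col5a1 rose by 0.67.

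Col5a3, the least common type V chain, read 7.999, 7.79, 7.74 and 7.40 on bleomycin arrays and 6.76, 6.72, 6.89 and 6.75 on control arrays. Bleomycin samples spread with an SD of 0.25, while control samples lay close together with an SD of 0.07. The difference was 0.95 ± 0.12, or 1.93-fold (limma adjusted p = 0.000585). Within replicates 3 and 4 alone it was 0.75 and did not pass (limma adjusted p = 0.0659).

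**Figure D2:**
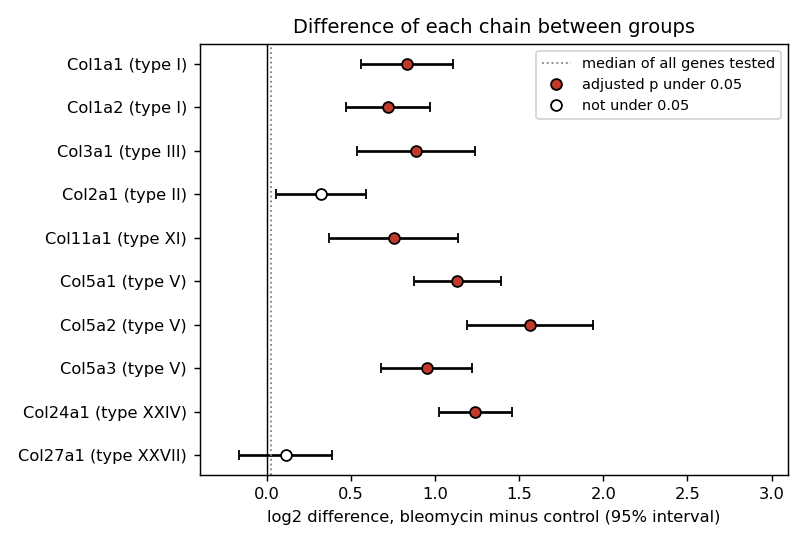
Log2 difference of each chain, bleomycin minus control (points), with its 95% interval from limma (bars, n = 4 each); filled points passed and the dotted line is the median of all genes at 0.03. The type V chains and Col24a1 lie to the right of the chains of types I and III, and the interval of Col27a1 spans 0. Each gene is read from its brightest probe set, and the places of Col1a2 and Col5a1 depend on that choice.

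The cartilage chains were dim. Col11a1, the cartilage counterpart of Col5a1, read 5.42, 5.02, 5.75 and 4.86 on bleomycin arrays and 4.45, 4.60, 4.44 and 4.55 on control arrays. Bleomycin replicates 1 and 3 were highest and replicate 4 came within 0.3 of the controls. The difference was 0.75 ± 0.17 (limma adjusted p = 0.0129). The control mean of 4.51 was at percentile 50.9 of the probe sets without a gene, so the control level cannot be told from background and the size of the rise is uncertain. Without control replicates 1 and 2 the difference was 0.77 and did not pass (limma adjusted p = 0.076), and it passed in neither pair of replicates.

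Col2a1, the type II chain of cartilage, read 6.18, 5.63, 6.10 and 6.00 on bleomycin arrays and 5.65, 5.71, 5.56 and 5.70 on control arrays. Bleomycin replicate 2 lay among the controls, and the other bleomycin arrays stood above them. The difference of 0.32 ± 0.12 did not pass (limma adjusted p = 0.0968), with a 95% interval from 0.05 to 0.59. It passed without bleomycin replicate 2 at 0.44 (limma adjusted p = 0.0126), with quantile normalization at 0.40 (limma adjusted p = 0.0456) and without the dimmer 50% of genes (limma adjusted p = 0.0484). Col11a2, the other type XI chain and not one of the 10, differed by 0.32 ± 0.10 (limma adjusted p = 0.0469).

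Markers of cartilage cells were given beside these chains because airways hold cartilage. Of 18 chondrocyte markers 4 were higher and 3 lower, with a median difference of 0.05 and list means between 4.88 and 5.04 in bleomycin arrays and between 4.79 and 4.97 in control arrays. The cartilage regulator Sox9 rose by 1.30 ± 0.22, the hypertrophic cartilage collagen Col10a1 by 1.20 ± 0.21 and the aggrecan gene Acan by 0.61 ± 0.16. Cytl1 fell by 0.76 and Scrg1 by 0.73. The matrilin gene Matn1 and the collagen IX gene Col9a1 differed by -0.13 and 0.13 and did not pass (limma adjusted p = 0.621 and 0.554). The means of 5 markers in bleomycin samples and of 6 in control samples lay under the median of the probe sets without a gene. Col10a1, Acan and Matn1 were among those 6, with control means of 3.94, 3.97 and 3.96.

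Of the chains of types XXIV and XXVII, Col24a1 rose and Col27a1 did not pass the test. Col24a1, first described in developing bone and eye, read 6.37, 6.44, 6.47 and 6.22 on bleomycin arrays and 5.08, 5.06, 5.33 and 5.09 on control arrays. The spread within each group was small and the groups were far apart. The control mean of 5.14 was at percentile 64.5 of the probe sets without a gene and the bleomycin mean of 6.38 at percentile 85.1. The size of the rise is therefore uncertain. The difference was 1.24 ± 0.10, and its adjusted p of 4.34e-05 (limma) was the smallest of the 10 chains. It passed in all 22 alternative fits that kept the threshold, at differences between 1.14 and 1.34.

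Col27a1, a chain of developing cartilage and other tissues, read 7.39, 7.71, 7.52 and 7.67 on bleomycin arrays and 7.18, 7.38, 7.68 and 7.60 on control arrays. The groups overlapped over most of their range. The difference of 0.11 ± 0.13 did not pass (limma adjusted p = 0.599), and its 95% interval ran from -0.17 to 0.39, below the lower bounds of Col1a1, Col1a2, Col3a1, Col5a1, Col5a2, Col5a3 and Col24a1. The control replicates were uneven, with 1 and 2 lower than 3 and 4. Without control replicates 1 and 2 the difference was -0.07, and within replicates 3 and 4 alone it was -0.05.

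Pairs of chains were compared within each array to ask whether the chains changed unequally. The log2 value of one chain minus that of another was taken on every array, and its group means were compared by an exact two-sided permutation test over the 70 splits of 8 arrays into 4 and 4. The smallest p that this design allows is 0.0286, and p-values were adjusted over the 7 pairs tested. Levels of different probe sets are not comparable, so only the change of each pair between groups is read.

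In type V the Col5a2 value minus the Col5a1 value was 0.75 ± 0.14 in bleomycin samples and 0.31 ± 0.14 in control samples (SD, n = 4 each). The 2 ranges did not overlap, and the change of 0.43 had the smallest p possible (exact permutation p = 0.0286, adjusted p = 0.05). Col5a1 minus Col1a1 lay between -3.27 and -3.01 in bleomycin samples and between -3.49 and -3.34 in control samples, a change of 0.30 (exact permutation p = 0.0286, adjusted p = 0.05). That direction depends on the probe set of Col5a1. In 2 settings chosen after seeing the data, the change was -0.17 with the mean of both sets (exact permutation p = 0.114, adjusted p = 0.2) and -0.63 with the dimmer one (exact permutation p = 0.0286, adjusted p = 0.05). Col5a2 minus Col5a1 kept its sign, at 0.90 and 1.36 in those settings. Col27a1 minus Col24a1 was 1.20 ± 0.20 in bleomycin samples and 2.32 ± 0.17 in control samples, a change of -1.13 (exact permutation p = 0.0286, adjusted p = 0.05).

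The type I chains were compared in the same way. Col1a2 minus Col1a1 was -0.43 ± 0.02 in bleomycin samples and -0.32 ± 0.05 in control samples (SD, n = 4 each), a change of -0.11 without overlap (exact permutation p = 0.0286, adjusted p = 0.05). This sign holds for the brighter Col1a2 probe set only, since the change was 0.18 with the mean of both and 0.47 with the dimmer one. Col3a1 minus Col1a1 changed by 0.05 (exact permutation p = 0.543), Col5a3 minus Col5a1 by -0.18 (exact permutation p = 0.143, adjusted p = 0.167; 0.28 and 0.74 in the same settings) and Col11a1 minus Col2a1 by 0.43 (exact permutation p = 0.0857, adjusted p = 0.12). An adjusted p of 0.05 lies at the threshold and not under it, so by that rule none of the 7 pairs passed, and 4 of them had groups that did not overlap. Those 4 had the smallest p that the design allows. With only 4 pairs at that p, the adjusted p could not fall under 0.05, however large a change was. This outcome therefore does not show that the chains of a pair changed equally.

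**Figure D3:**
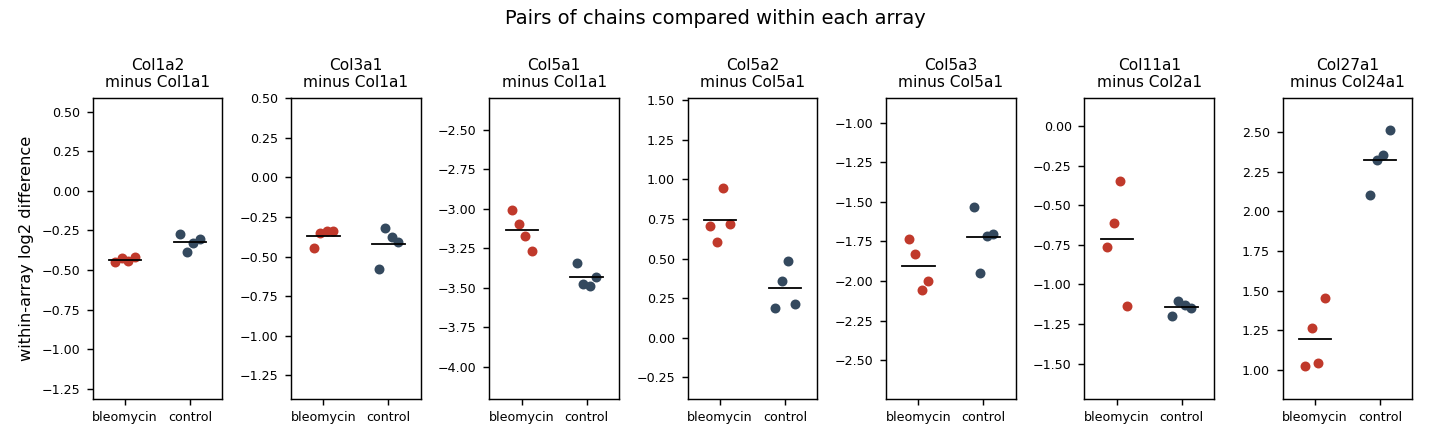
Log2 value of one chain minus that of another on each array (points, bleomycin left and control right) with group means (lines, n = 4 each); every panel spans the same number of log2 units. Each gene is read from its brightest probe set. Col27a1 minus Col24a1 changed most, by -1.13, and Col3a1 minus Col1a1 changed by 0.05.

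The rise of a chain was set against its intensity in control samples. Over the 10 chains Pearson's r was 0.10 and Spearman's rho 0.02, and over all 22180 genes they were -0.17 and -0.18. The points share arrays and the control mean enters both axes, and probe sets differ in brightness for reasons other than transcript level, so these values describe the plot and no test was made. The differences were 0.72 to 0.88 for Col1a1, Col1a2 and Col3a1, with control means above 11.5. The value of 0.75 for Col11a1 comes with a control mean of 4.51, close to the median of rows without a gene. In the middle of the range lay both the largest rise, of Col5a2 with a control mean of 8.82, and the smallest difference, of Col27a1 with a control mean of 7.46.

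Large rises were not seen at the bright end of the array. Of 251 genes with a control mean over 11, none passed with a rise over 2-fold, and the largest difference was 0.94. Col3a1, Col1a1 and Col1a2 held places 3, 4 and 6 among those 251 genes by size of rise. Of 6095 genes with control means between 5 and 7, where Col24a1, Col5a3 and Col2a1 lie, 3.38% rose over 2-fold. Between 7 and 9, where Col5a1, Col5a2 and Col27a1 lie, 1.75% of 4858 genes did. Col2a1 and Col27a1 did not pass. Whether intensity near the top of the scale compressed the differences of the type I and III chains was not tested.

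**Figure D4:**
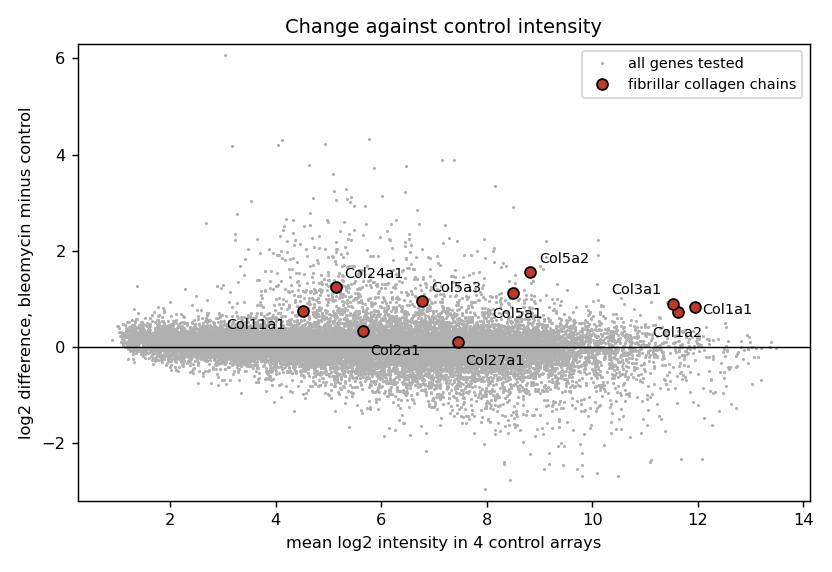
Log2 difference, bleomycin minus control, against mean log2 intensity in the 4 control arrays, for the 10 chains (large points) and all 22180 genes (small points). The 3 chains above 11.5 lie along the upper edge of the bright genes, and the 10 chains show no slope, with Pearson's r of 0.10.

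Within each group, several chains varied together between arrays. Deviations from the group means of Col1a1 and Col1a2 had a Pearson's r of 0.99 and a Spearman's rho of 0.90 over the 8 arrays, and those of Col1a1 with Col3a1 and with Col5a2 had an r of 0.98 and 0.94. Control replicates 1 and 2 deviated most in Col1a1, and without them these r were 0.99, 0.96 and 0.96 over 6 arrays. Col5a1 followed Col1a1 with an r of 0.88, or 0.79 without those arrays. Col5a3, Col2a1 and Col27a1 followed it less, with an r of 0.17, 0.16 and 0.34, or 0.32, 0.18 and -0.034 without those arrays. Col24a1 and Col11a1 had an r of 0.47 and 0.52, or 0.79 and 0.69 without them. Over all 45 pairs of chains the median r was 0.46, with values from -0.52 to 0.99, and 6 pairs exceeded 0.9. These values share arrays and scaling and are given as a description.

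Bleomycin replicate 3 had the highest value of its group in 7 of 10 chains, and bleomycin replicate 4 the lowest in 7. Over all probe sets bleomycin replicate 4 correlated with the control arrays at an r of 0.977 to 0.980. The other bleomycin arrays did so at 0.959 to 0.969. Among controls replicate 1 was the lowest in 6 chains. The epithelial marker mean was 6.71 on bleomycin replicate 3, the lowest of its group, and 7.46 on bleomycin replicate 4, the highest. On bleomycin replicates 1 and 2 it was 7.26 and 6.98. In controls it was 8.95 on replicate 1, the highest, 8.83 on replicate 2, 8.25 on replicate 3 and 8.21 on replicate 4, the lowest. Control replicates 2 and 3 each held the highest control value of 5 chains. The fibroblast marker mean was 10.695, the lowest of its group, on bleomycin replicate 1. On bleomycin replicates 2, 3 and 4 the fibroblast mean was 10.89, 11.00 and 10.89. It was 10.73, 10.76, 10.825 and 10.70 on control replicates 1, 2, 3 and 4. The part of the cell mixture in these deviations was not tested.

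**Figure D5:**
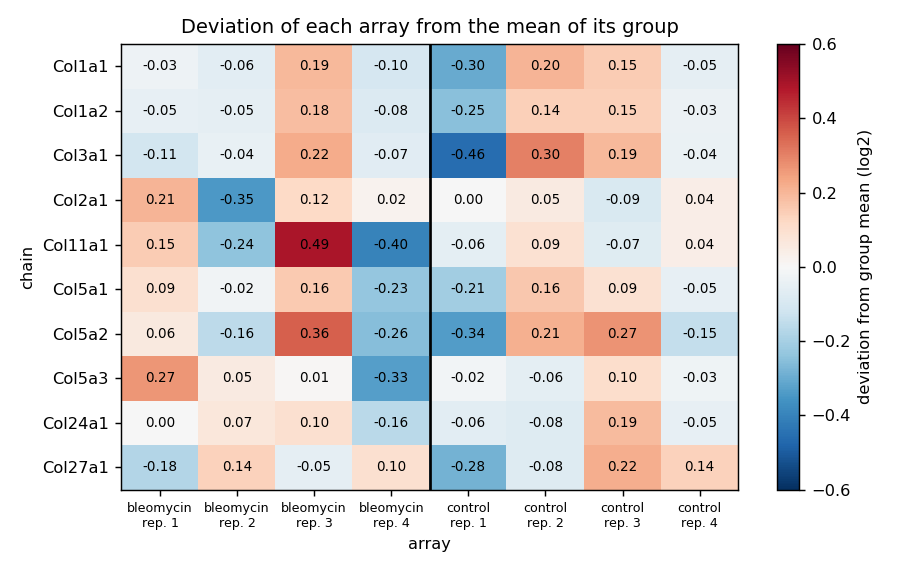
Deviation of each chain from the mean of its group (cells, log2 units) on each array (columns, bleomycin left and control right). Bleomycin replicate 3 is high and control replicate 1 low for Col1a1, Col1a2, Col3a1 and Col5a2, and Col27a1 shows another pattern.

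The genes whose pattern over the 8 arrays was most like that of Col1a1, leaving out the 10 chains and predicted genes, were Ctsk, Enah, Mfap2, Adcy7 and Ak1, with Pearson's r from 0.991 to 0.995. They rose by 1.18, 0.43, 0.98, 1.06 and 1.17. By deviations from the group means alone Ctsk and Enah were again among the 5 most alike, with an r of 0.97 and 0.96. The other 3 were Olfr16, Mrap2 and Fbxo44, with an r of 0.96, 0.95 and 0.95, whose differences of 0.10, -0.05 and 0.05 did not pass. The means of Olfr16 (1.58 in bleomycin and 1.48 in control samples) and Mrap2 (3.52 and 3.57) lay under the median of the probe sets without a gene. By each measure the 5 were picked as the highest r among all genes kept, over only 8 arrays, and no test was made.

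Promoter sequences are shown to set chains that rose together beside Col27a1, which did not pass. RefSeq start sites on GRCm38.p6 with 250 bases before and 50 after were at hand for 7 of the 10 chains, namely Col1a2, Col3a1, Col5a1, Col5a3, Col11a1, Col24a1 and Col27a1. No values of these arrays locate factors on them. The sequences run from 130 bases before to 20 after the start for 4 genes, written 5′ to 3′ on the strand of the gene, which is the plus strand for each. Capitals mark the motifs searched, on either strand. Col1a2 lies at chr6:4505488-4505637, Col3a1 at chr1:45311408-45311557, Col24a1 at chr3:145292342-145292491 and Col27a1 at chr4:63215282-63215431.
Col1a2: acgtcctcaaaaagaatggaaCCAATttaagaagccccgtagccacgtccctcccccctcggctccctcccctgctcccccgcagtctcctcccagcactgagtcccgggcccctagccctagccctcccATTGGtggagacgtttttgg
Col3a1: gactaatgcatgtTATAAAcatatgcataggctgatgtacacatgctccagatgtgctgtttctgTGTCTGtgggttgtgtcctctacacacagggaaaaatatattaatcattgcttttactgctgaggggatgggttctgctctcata
Col24a1: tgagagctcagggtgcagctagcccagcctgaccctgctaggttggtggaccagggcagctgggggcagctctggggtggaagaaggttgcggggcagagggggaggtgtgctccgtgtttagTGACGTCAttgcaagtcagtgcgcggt
Col27a1: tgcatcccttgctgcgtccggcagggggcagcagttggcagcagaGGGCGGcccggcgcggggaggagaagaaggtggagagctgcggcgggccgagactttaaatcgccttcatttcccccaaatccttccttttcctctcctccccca

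The motifs were the CCAAT box (CCAAT), the GC box (GGGCGG), the TATA box (TATAAA), the cyclic AMP response element (TGACGTCA) and a SMAD-binding element (CAGACA), each read on both strands of the 300-base windows. No motif was found in all 7 windows. The GC box was in 5, those of Col1a2, Col5a1, Col5a3, Col11a1 and Col27a1, and in 35.7% of 32851 windows of all genes. The CCAAT box was in 3, those of Col1a2, Col5a3 and Col11a1, and in 37.4% of all windows. In Col1a2 it occurs in the forward sense from 109 bases before the start and again in reverse, as ATTGG, at the start itself. The SMAD element was in Col1a2, Col3a1 and Col5a1 and in 21% of all windows, and in Col3a1 it reads TGTCTG from 65 bases before the start.

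Col24a1, with the smallest adjusted p of the chains, had the cyclic AMP response element across its start, which 1.79% of all windows hold, and none of the other motifs. Only Col3a1 had the TATA box, beginning 117 bases before the start, against 13.6% of all windows. The base composition of the windows also ranged widely, with 37.7% G and C and no CG pair in Col3a1 and 75% and 34 CG pairs in Col5a1, against a median of 52.7% over all windows. Col27a1 had 61.7% G and C, close to 61% in Col1a2 and 63.3% in Col5a3. A match describes letters in these windows and shows no binding.

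The genes that fold, cut, join, bind and break fibrillar collagen were counted in 7 lists. Of 154 measured genes 58 rose and 14 fell, against 9.12% and 8.24% of all genes, and their median difference was 0.22. Without control replicates 1 and 2 the counts were 38 and 6, against 1205 and 992 of all 22180 genes. Of 33 other collagen chains 11 rose and 2 fell. The network-forming Col8a1, the von Willebrand-domain collagen Col28a1 and the fibril-associated Col12a1 rose by 2.59, 2.40 and 2.25, against the 1.56 of Col5a2. The basement membrane chains Col4a3 and Col4a4 fell by 0.70 and 0.43. The count of falls was 1 without control replicate 2 and 4 without bleomycin replicate 4.

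Of 21 genes of collagen folding and modification 11 rose and 1 fell, and the median was 0.36. The count of 11 was 7 without bleomycin replicate 1 or 3 or control replicate 1. P4ha3, a subunit of the prolyl hydroxylase that stabilises the helix, rose by 3.88 ± 0.25, the prolyl 3-hydroxylase P3h1 by 1.02 ± 0.13 and the collagen galactosyltransferase Colgalt1 by 0.57 ± 0.12. The related Colgalt2 fell by 2.40 ± 0.26. Of 20 genes of procollagen export and cleavage 7 rose and 1 fell. The amino-end procollagen peptidase Adamts14 rose by 1.01, the carboxyl-end peptidase Bmp1 by 0.99 and the proprotein convertase Furin by 0.54, and the peptidase enhancer Pcolce2 fell by 1.19.

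Of 24 genes of fibril cross-linking and assembly 10 rose and 3 fell. The thrombospondin Thbs2 rose by 2.85, periostin, Postn, by 1.86 and the fibril-binding proteoglycan fibromodulin, Fmod, by 1.18. Tenascin X, Tnxb, which spaces fibrils, fell by 1.14 and Abi3bp by 0.42. Of 13 collagenases, gelatinases and their inhibitors 5 rose and 2 fell. The collagenases Mmp8 and Mmp13 rose by 3.61 and 3.04 and the inhibitor Timp1 by 2.20. The control mean of Mmp13, 3.54, is under the median of the probe sets without a gene. The inhibitors Reck and Timp3 fell by 0.92 and 0.33. The list had 1 fall without bleomycin replicate 1, bleomycin replicate 2, control replicate 1 or control replicate 3.

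Of 12 collagen receptor and uptake genes 2 rose and 3 fell. Cathepsin K, Ctsk, which degrades collagen in lysosomes, rose by 1.18 and the integrin chain Itgb1 by 0.30, while the scavenger receptor Cd36, the adhesion receptor Adgrg1 and the platelet collagen receptor Gp6 fell by 1.51, 0.71 and 0.44. For Gp6 the groups overlapped, and its bleomycin mean of 4.17 lay under the median of the probe sets without a gene. Leaving out single arrays gave 1 to 2 rises and 1 to 2 falls in this list. Of 31 collagen gene regulators 12 rose and 2 fell, and the 12 were 7 without control replicate 3. Runx1, a transcription factor of blood development, rose by 2.17, the ligand Tgfb1, an inducer of collagen synthesis, by 1.34 and the tendon factor scleraxis, Scx, by 1.32. The zinc finger factors Sp1 and Sp3, which bind GC boxes, fell by 0.38 and 0.29, and the list had 1 fall without bleomycin replicate 1 or 2 or without any single control array.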

How the data were processed

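The deposited table holds 1 value per probe set and array. The authors' scale is unnamed. With a range of 0.24 to 13.58 the deposited values were read as log2 intensities. How the authors corrected background, summarised probes and normalized arrays is not given in the sources used here. Sample titles give the group and the replicate number, per the labels. Of 41345 rows, 23521 carry 1 gene in the platform annotation, 1814 several and 16010 none. Rows with 1 gene were kept, the brightest per gene by its mean over 8 arrays, which gave 22180 genes. The values were used as deposited.

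Groups were compared over all of these genes by a two-sided moderated test (limma 3.58.1, lmFit then eBayes; R 4.3.3) at a Benjamini-Hochberg adjusted p under 0.05. On simulated data with 200 of 22180 genes changed, the test recovered 64.2% of changes of 1.5-fold, 85.1% at 2-fold and 95.5% at 4-fold, and 5.78% of the calls were false. The simulation changed far fewer genes than were called here and gave each gene independent noise. Its rates need not hold for these data. Pairs of chains were tested by exact permutation. Detection calls were not used, so probe sets near the median of rows without a gene (4.20 to 4.52 over the arrays) cannot be told from background. The members, the 7 pathway and 8 marker lists, the pairs and the tests were chosen with earlier results of these data known. Named are all 10 chains, from each list up to 3 passing genes that moved most in the direction of its majority and up to 2 that moved the opposite way, and the 5 genes most like Col1a1 by each of 2 measures. Not every eligible gene is named, and the rest were left out after their values were seen. Col11a2, Matn1 and Col9a1 were named outside this rule, after their values were seen. For the pairs, the other probe sets of Col1a2 and Col5a1 were added after seeing the data. Alternatives covered scaling, dim genes, probe sets, moderation, array weights, thresholds, blocks and left-out arrays. Figures were drawn with matplotlib 3.10.9.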

Additional observations from a re-analysis of the deposited data

Results flagged for a closer look

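In groups of 4 arrays, 34 sets of values (the 10 chains and 7 pairs in both groups) were checked for an array far from the others by Dixon's criterion at the 95% level. Chance marks about 1 in 20 such sets, and 3 were marked here. Col1a2 read 12.52 on bleomycin replicate 3, and the next highest bleomycin array read 12.29. Col24a1 read 5.33 on control replicate 3, and the next highest control array read 5.09. Col3a1 minus Col1a1 was -0.45 on bleomycin replicate 1, and the next lowest bleomycin array was at -0.35.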

How the results depend on the processing

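The count of 8 chains higher was 8 with the replicate number as a block, and the block changed no chain's call. Same-numbered arrays of the groups correlated at 0.13, 0.06, 0.11 and 0.06 in their deviations over all genes. Bleomycin replicate 2 correlated best with control replicate 1, so the numbers were not taken as pairs. Correlations between the groups were positive within replicates 1 and 2 and within replicates 3 and 4, at 0.06 to 0.13. Between replicates 1 or 2 of one group and 3 or 4 of the other they were negative, at -0.14 to -0.07. The cause of this pattern was not tested. A block of replicates 1 and 2 against 3 and 4 gave 2293 genes higher and 2168 lower. With it the count of chains higher was again 8. The count was 9 with quantile normalization, where Col2a1 passed, 8 to 9 leaving out 1 array, 7 without control replicates 1 and 2, 4 within replicates 1 and 2, 4 within replicates 3 and 4 and 3 with a rise over 2-fold required. No chain was lower in any of the alternatives run. Over all genes 2022 were higher and 1828 lower. These were 1079 and 879 at an adjusted p under 0.01, 440 and 282 over 2-fold, 1205 and 992 without control replicates 1 and 2, 838 and 833 within replicates 1 and 2, and 503 and 220 within replicates 3 and 4. Leaving out 1 array gave 1497 to 1987 higher and 1306 to 1883 lower. Of the pathway genes 58 were higher and 14 lower, which became 38 and 7 at an adjusted p under 0.01, 22 and 4 over 2-fold, 38 and 6 without control replicates 1 and 2, 31 and 7 within replicates 1 and 2, and 20 and 1 within replicates 3 and 4. With all rows in 1 fit 9 were lower, and leaving out 1 array gave 44 to 52 higher and 9 to 14 lower. Col27a1 changed sign, to -0.068 without control replicates 1 and 2 and -0.047 within replicates 3 and 4. The change of Col3a1 minus Col1a1 ranged from -0.0012, without control replicate 1, to 0.084 leaving out 1 array. With the mean of a gene's probe sets, an alternative chosen after seeing the data, Col1a2 minus Col1a1, Col5a1 minus Col1a1 and Col5a3 minus Col5a1 turned to 0.18, -0.17 and 0.28, and with the dimmer probe set of Col1a2 or Col5a1, likewise chosen, to 0.47, -0.63 and 0.74. Fewer arrays enter the fits that leave arrays out, and the cause of the other changes was not tested. Col5a1, Col5a2 and Col24a1 passed in all 22 alternative fits that kept the threshold. None of those fits read Col5a1 from its dimmer probe set alone. On that set the difference was 0.21 and did not pass (limma adjusted p = 0.329 over all rows).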
